A study of Mus musculus with 24 samples.

Results

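Genes of fatty acid oxidation and of the peroxisome proliferator-activated receptors (PPARs) were followed in cultured mouse whisker follicles. The set held 37 genes out of 36610 named genes or transcripts on the array, and its members were taken by gene name alone: the receptors and a coactivator, proteins that take up, bind and activate fatty acids, the carnitine shuttle, the enzymes of mitochondrial and peroxisomal oxidation, and receptor targets of lipid storage and fuel choice. All 37 members were among the 22065 genes tested, and the probe of each was well above background on all 24 arrays, so none was lost to the filter on dim probes.

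PPARs are nuclear receptors for fatty acids and their derivatives. They bind DNA together with a retinoid X receptor, at repeats of a short half-site, and switch on genes of fatty acid uptake, storage and oxidation. In skin they are known for roles in keratinocyte differentiation and in the lipid production of sebaceous glands. Long-chain fatty acids are joined to coenzyme A, carried into mitochondria as carnitine esters and shortened there in repeated cycles. Very long chains are first shortened in peroxisomes.

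Whisker (vibrissa) follicles were isolated from B6C3F1 mice at postnatal day 9 and cultured for 24 h in RPMI 1640 medium with 10% fetal bovine serum, which all groups shared. The 8 groups were a control with no compound, 0.3% panthenyl ethyl ether (PEE), tocopherol acetate (TA) at 0.024%, pyridoxine hydrochloride (PH) at 0.015%, the pairs PEE-PH, PEE-TA and PH-TA, and PEE-PH-TA. Mixtures held each compound at its single dose, per the labels. PEE is a derivative of panthenol, PH a B vitamin and TA an ester of vitamin E, and the question the design poses is how mixtures compare with single compounds. Each group had 3 one-colour Agilent arrays, from 3 independent experiments with RNA of 10 follicles each. A level below is the log2 signal of a gene's probe minus the 75th percentile of log2 signal on the same array, so that 0 is that percentile. Levels are compared between arrays, never between genes, and an array is named by its group and replicate number (control 1). Differences are log2 and values after ± are standard errors.

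Whole follicles hold several cell types. All 16 markers of hair follicle epithelium and all 10 of sebaceous glands were well above background on all 24 arrays, and so were 13 of 14 skeletal muscle markers. Of 9 adipocyte markers 5 were well above background on all 24 arrays, Adipoq and Cidec on 23, Ucp1 on 8 and Retn on 6. The 75th percentile of signal was 140 to 145 on the PEE arrays, 153 to 187 on control arrays, 196 to 215 under PEE-PH and 201 to 245 under PH-TA, so it moved with the groups. The 3 slides each carried 1 array of every group.

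Because receptor binding sites stand at the start of this pathway, the RefSeq promoters of the members (250 bases before to 50 after the transcript start, mouse build GRCm38.p6) were read for the half-site AGGTCA on both strands. Of the 37 genes, 31 had a promoter in the table, with 36 starts in all. The half-site was in 9 of these 36 promoters (25%), against 16.3% of all 32851 promoters. The direct repeat AGGTCANAGGTCA was in 0 of the 36 and in 0.0396% of all promoters. The looser AGGNCANAGGNCA was in 0 of 36 and in 0.381%. The 5 stretches below come from members whose levels are described next: the gene with the largest change (Lpin1), a receptor (Pparg), a transporter (Cd36), a droplet protein (Plin2) and the entry enzyme of mitochondria (Cpt1a). Each is written 5′ to 3′ along the gene, ends before the start site and has the half-site or its reverse complement TGACCT in capitals.
Lpin1, chr12:16611013-16611062, minus strand: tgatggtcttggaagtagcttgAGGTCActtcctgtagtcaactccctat
Pparg, chr6:115361094-115361143, plus strand: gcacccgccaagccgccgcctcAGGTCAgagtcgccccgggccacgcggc
Cd36, chr5:17836097-17836146, minus strand: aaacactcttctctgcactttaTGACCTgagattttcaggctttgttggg
Plin2, chr4:86670250-86670299, minus strand: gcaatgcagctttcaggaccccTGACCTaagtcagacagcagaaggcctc
Cpt1a, chr19:3323185-3323234, plus strand: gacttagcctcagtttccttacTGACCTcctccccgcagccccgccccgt
The half-site lay 74 to 69 bases before the start in Lpin1, 28 to 23 before it in Pparg and 94 to 89 before it in Cpt1a. It lay 228 to 223 bases before the start in Cd36 and 218 to 213 before it in Plin2. At another Pparg start, whose stretch is not printed, the half-site lay 9 to 4 bases before. Acadm, Acadvl and Ucp3 held it too. A match of 6 letters is a description of the window and no binding was measured.

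Single compounds changed few members and pairs changed more. Under PEE alone 2 members rose and 1 fell, where 11% of all genes tested changed. Under PH alone 1 rose and 1 fell, against 5.37% of all genes, and under TA alone 0 of 37 passed, against 1.81%, by limma, the only tool run, while 5 members were under an unadjusted p of 0.05. Under PEE-PH 9 rose and 4 fell (35.9% of all genes), under PEE-TA 9 rose and 1 fell (25.6%), and under PH-TA 9 rose and 5 fell (29.8%). Under PEE-PH-TA 6 rose and 0 fell, against 16.5%. The split moved with the scaling: quantile normalization gave 14 higher and 3 lower under PEE-PH and 12 higher and 3 lower under PH-TA, and normexp background gave 2 higher and 7 lower under PEE. The share of members changed was thus 8.11% under PEE, 35.1% under PEE-PH, 27% under PEE-TA, 37.8% under PH-TA and 16.2% under PEE-PH-TA, near the share of all genes in each case. The median member stood at 0.15 under PEE-PH and at 0.09 under PEE-PH-TA, while the median of all genes was -0.06 and 0.00. The 7 comparisons use the same 3 control arrays. Calls against control ended under some alternatives. In a fit of only the arrays compared 1 of 3 was lost under PEE, 2 of 2 under PH and 2 of 13 under PEE-PH. The same fit lost 5 of 10 under PEE-TA, 8 of 14 under PH-TA and 5 of 6 under PEE-PH-TA. Those 5 were Ppard, Cpt2, Acadvl, Decr1 and Eci1, and Lpin1 was kept.

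**Figure D1:**
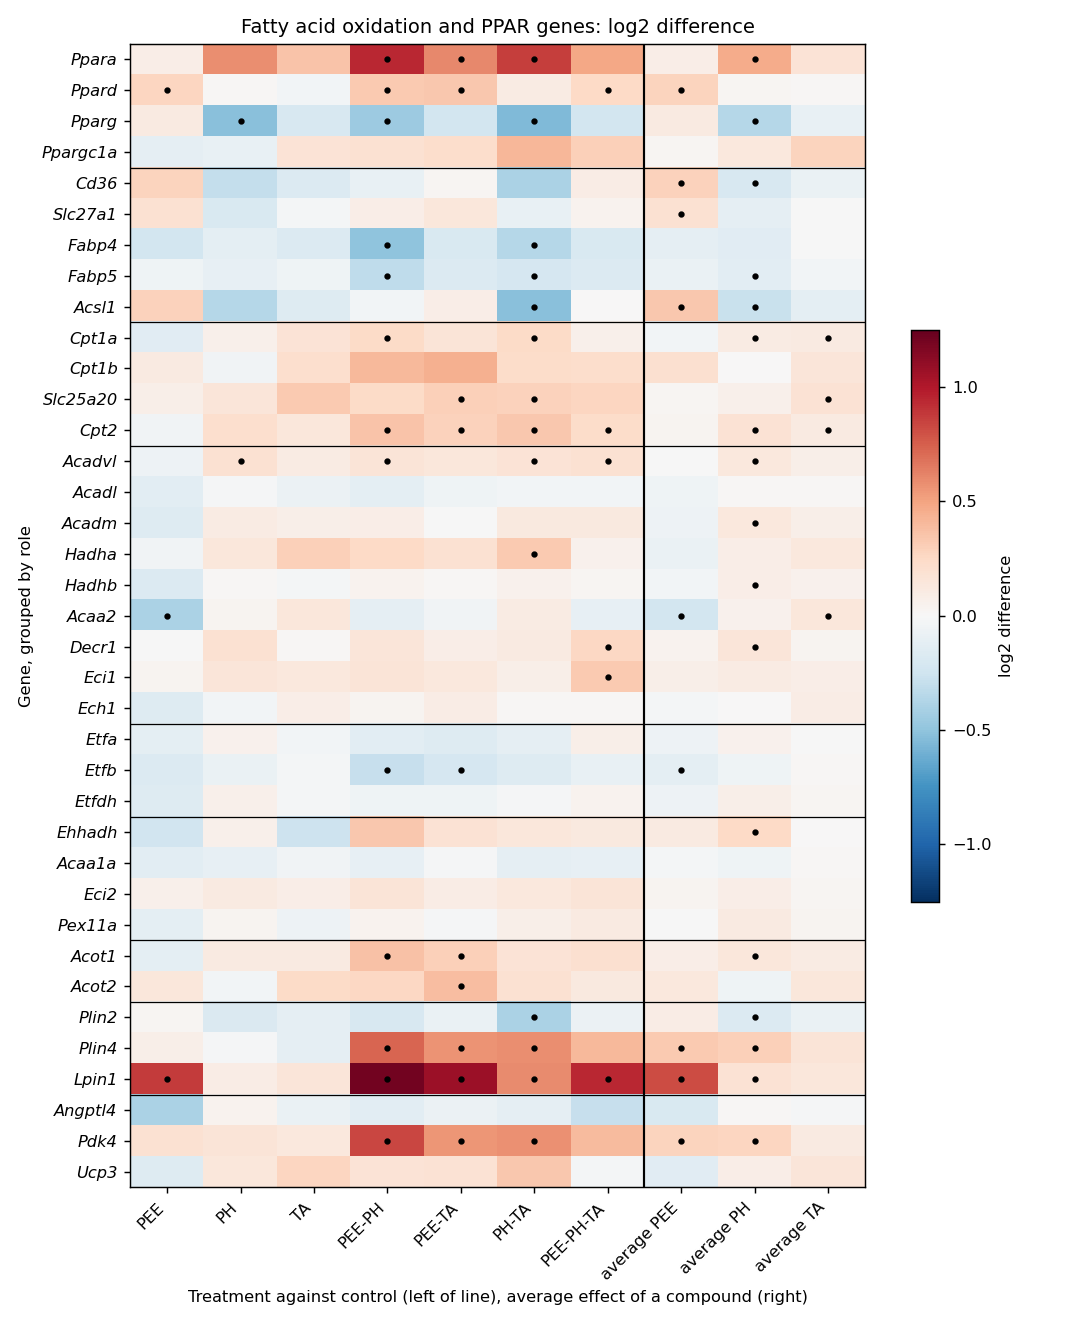
Log2 difference of each of the 37 genes (rows, grouped by role) from control for 7 treatments and, right of the line, the average effect of each compound over 4 backgrounds. Colour runs from blue (lower) to red (higher), and dots mark limma adjusted p under 0.05. Lpin1 was dotted in all 4 columns of treatments with PEE and in PH-TA, and the TA column has 0 dots.

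An average effect is the mean difference that a compound made over its 4 backgrounds (none, either other compound, or both), 12 arrays against 12. For PEE 7 members rose and 2 fell, with 27.1% of all genes changed. For PH 12 rose and 5 fell, which is 45.9% of members against 31.2% of all genes, and 13.8% of all genes rose. With quantile normalization 12 members rose and 3 fell under PH, while all genes called went from 3038 higher and 3846 lower to 3888 higher and 2814 lower. For TA 4 rose and 0 fell, against 7.97%. The median member stood at 0.03 for PEE, 0.07 for PH and 0.05 for TA, and the median of all genes at 0.00, -0.02 and -0.01. Of the called members, 6 of 9 for PEE, 6 of 17 for PH and 2 of 4 for TA had the same sign in all 4 backgrounds and on all 3 slides. The 6 for PH include Pparg, whose background values reached 0.00 after rounding. By role, under PH 3 of 5 genes of uptake, binding and activation fell and 0 rose, where 17.4% of all genes fell, while 2 of 4 carnitine shuttle genes and 4 of 9 mitochondrial enzymes rose and 0 fell. With quantile normalization, and in the authors' value table, 1 of those 5 was lower, and the difference between roles was not tested. Each replicate number was 1 slide, and every call of an average effect ended when 1 of the 3 slides was left out, except Ppard, Acaa2, Acsl1 and Lpin1 for PEE and Ppara, Acadvl and Acsl1 for PH.

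**Figure D2:**
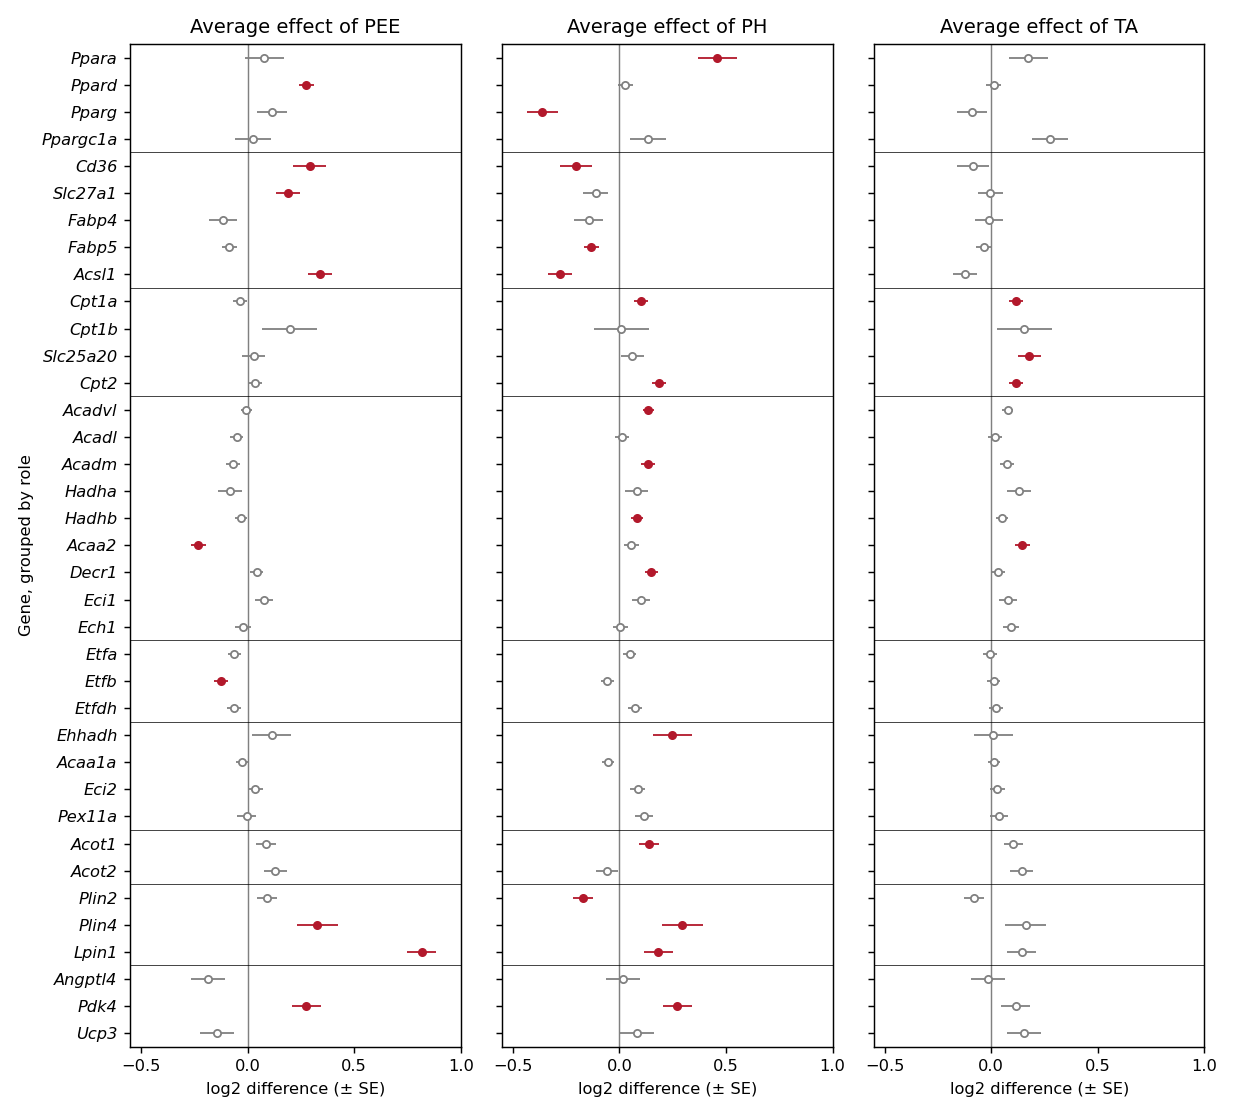
Average effect of PEE, PH and TA on the 37 genes (rows, grouped by role), as log2 difference with its standard error. Filled red points passed a limma adjusted p of 0.05 and open grey points did not. Lpin1 is the farthest point to the right for PEE at 0.82, and under PH Ppara lies to the right at 0.46 and Pparg to the left at -0.36.

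Among the receptors, Ppard rose on average under PEE, and Ppara rose and Pparg fell under PH. Ppard encodes PPAR delta, the widely expressed receptor of the family, and its probe lies at chr17:28438298-28438357 (mm9). Ppard levels were 2.47, 2.50 and 2.60 in control, 2.50, 2.55 and 2.56 under PH, 2.29, 2.58 and 2.60 under TA and 2.58, 2.63 and 2.67 under PH-TA. With PEE present, Ppard read 2.74, 2.81 and 2.84 under PEE alone, 2.83, 2.83 and 2.91 under PEE-PH, 2.84, 2.86 and 2.90 under PEE-TA and 2.73, 2.78 and 2.80 under PEE-PH-TA. Every array with PEE was above every array without it. For Ppard the average effect of PEE was 0.28 ± 0.03 (adjusted p = 6.44e-06), a 1.21-fold rise, with 0.24, 0.26 and 0.33 on the 3 slides and 0.14 to 0.37 over the 4 backgrounds, and the call held in every setting tried. Against control Ppard stood at 0.27 (adjusted p = 0.0155) under PEE and 0.25 (adjusted p = 0.0175) under PEE-PH-TA. The last call ended without any 1 of control 1, control 3, PEE-PH-TA 1 or PEE-PH-TA 2 (adjusted p up to 0.0683). The summed level of the 10 sebaceous gland markers moved under PEE too: it was 6.26 to 6.73 on the 12 arrays with PEE and 6.79 to 7.3 on the 12 without, so that these did not overlap. Krt79 made up most of this sum, with a mean of 6.99 in control beside 7.06 for the sum. Its average effect of PEE was -0.46 ± 0.06. For that effect 1 of the 10 markers rose and 3 fell, where 27.1% of all genes changed, and their median was 0.02. The part of these markers in the PEE results was not tested. In bulk RNA, fewer cells of a type and less RNA per cell cannot be told apart, here and in what follows.

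Pparg encodes PPAR gamma, the receptor of adipocyte and sebocyte differentiation (probe at chr6:115440213-115440272, mm9), and a stretch from its promoters is among those printed. Pparg levels were 0.60, 0.62 and 0.82 in control, 0.61, 0.74 and 1.03 under PEE, 0.34, 0.47 and 0.64 under TA and 0.24, 0.44 and 0.66 under PEE-TA. With PH present, Pparg read 0.02, 0.11 and 0.35 under PH alone, 0.15, 0.18 and 0.34 under PEE-PH, -0.09, 0.03 and 0.43 under PH-TA and 0.32, 0.43 and 0.58 under PEE-PH-TA. All 12 arrays with PH lay below all 3 control arrays, and they overlapped with the TA and PEE-TA arrays. For Pparg the average effect of PH was -0.36 ± 0.07 (adjusted p = 0.00126), with -0.45, -0.13 and -0.50 on the 3 slides. Against control Pparg differed by -0.52 (adjusted p = 0.0403) under PH, -0.46 (adjusted p = 0.0183) under PEE-PH and -0.55 (adjusted p = 0.00764) under PH-TA. The call under PH alone ended with only the arrays compared (adjusted p = 0.091), without the filter on dim probes (adjusted p = 0.0708) and in the authors' value table (adjusted p = 0.0746), and that under PH-TA with only the arrays compared (adjusted p = 0.0501). Of 10 sebaceous markers 1 rose and 3 fell for the average effect of PH, near the share of all genes (31.2%), and their summed level was 6.85 to 7.19 in control and 6.79 to 6.92 under PH. Their part in the result was not tested.

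Ppara encodes PPAR alpha, the receptor best known for switching on fatty acid oxidation in liver (probe at chr15:85632110-85632169, mm9), and its probe was dim, at 11.5 to 52.7 signal units. Ppara levels were -3.73, -3.29 and -3.04 in control, -3.41, -3.25 and -3.17 under PEE, -3.10, -3.08 and -2.82 under TA and -2.96, -2.73 and -2.56 under PEE-TA. With PH present, Ppara read -2.92, -2.86 and -2.54 under PH alone, -2.57, -2.53 and -2.12 under PEE-PH, -2.86, -2.40 and -2.22 under PH-TA and -2.95, -2.93 and -2.73 under PEE-PH-TA. All 12 arrays with PH lay above all control and all PEE arrays, and they overlapped with the TA and PEE-TA arrays. For Ppara the average effect of PH was 0.46 ± 0.09 (adjusted p = 0.00132), a 1.38-fold rise, and over the 4 backgrounds it ran from -0.12 to 0.87. Ppara rose by 0.95 (adjusted p = 0.000655) under PEE-PH, 0.60 (adjusted p = 0.0213) under PEE-TA and 0.86 (adjusted p = 0.00229) under PH-TA. PH added to PEE gave 0.87 (adjusted p = 0.00156). In PEE-TA and PH-TA these calls ended with normexp background (adjusted p = 0.31 and 0.198). With normexp background in place of the deposited signal the average effect of PH was 0.04 (adjusted p = 0.223), and over all alternatives its adjusted p ran up to 0.51. Ppargc1a, the coactivator of mitochondrial biogenesis, ran from -2.89 to -1.91 over all arrays and was not called for any average effect, the nearest being TA at 0.28 ± 0.08 (adjusted p = 0.0503).

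**Figure D3:**
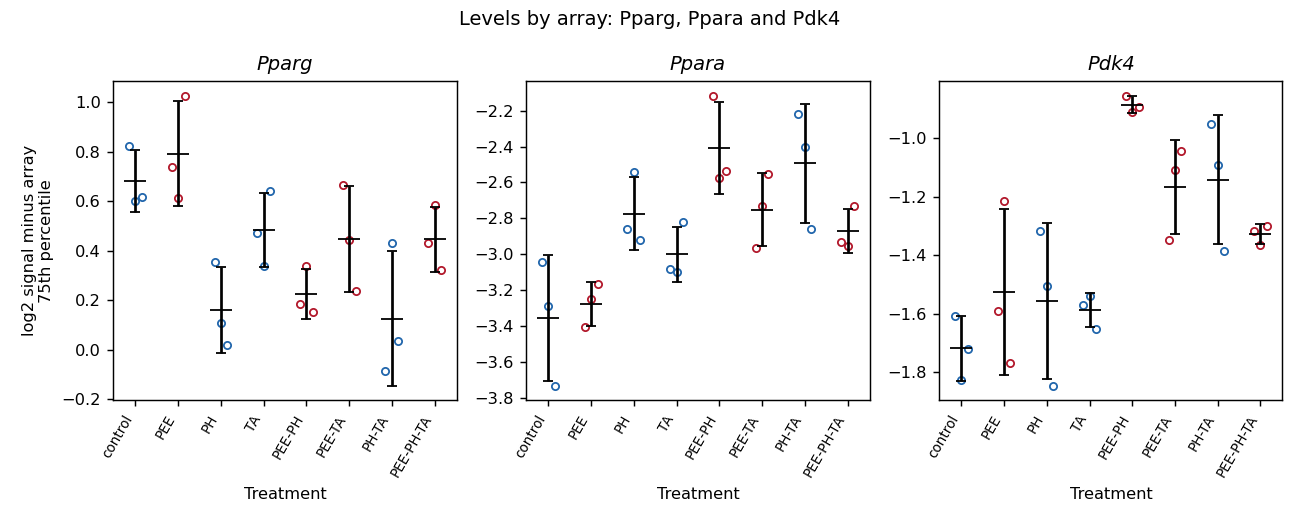
Level of Pparg, Ppara and Pdk4 on each array (circles, 3 per group, red for groups with PEE and blue for the others), with mean and SD in black. The y axis is log2 signal minus the 75th percentile of the array and differs between panels. Pparg in the PH group lies between 0.02 and 0.35, below the control arrays at 0.60 to 0.82.

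The genes of uptake, binding and activation split by compound: on average over backgrounds Acsl1, Cd36 and Slc27a1 rose under PEE, and Acsl1, Cd36 and Fabp5 fell under PH. Acsl1 joins long-chain fatty acids to coenzyme A (probe at chr8:47621232-47621291, mm9). Acsl1 levels were 1.94, 1.96 and 2.04 in control, 1.45, 1.65 and 1.76 under PH, 1.65, 1.88 and 1.92 under TA and 1.32, 1.51 and 1.56 under PH-TA. With PEE present, Acsl1 read 2.16, 2.28 and 2.34 under PEE alone, 1.77, 1.95 and 2.11 under PEE-PH, 1.91, 2.12 and 2.15 under PEE-TA and 1.78, 2.02 and 2.14 under PEE-PH-TA. PEE arrays lay above all control arrays, and PH, TA and PH-TA arrays lay below them. The average effects were 0.34 ± 0.06 (adjusted p = 0.000146) for PEE and -0.28 ± 0.06 (adjusted p = 0.00145) for PH, with 0.34, 0.37 and 0.32 on the 3 slides for PEE and -0.28, -0.39 and -0.17 for PH. The signs were opposed in all 4 backgrounds, at 0.24 to 0.52 for PEE and -0.36 to -0.08 for PH. Another Acsl1 probe gave 0.45 for PEE (adjusted p = 4.53e-05) and -0.29 for PH (adjusted p = 0.00356). Of the 7 treatments PH-TA was the 1 called against control, at -0.52 (adjusted p = 0.00267).

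Cd36 is a fatty acid transporter of the cell surface, also abundant on capillary endothelium and macrophages. Cd36 levels were -0.87, -0.70 and -0.56 in control, -1.17, -1.10 and -0.76 under PH, -1.07, -0.88 and -0.71 under TA and -1.47, -1.06 and -0.78 under PH-TA. With PEE present, Cd36 read -0.67, -0.43 and -0.20 under PEE alone, -0.81, -0.81 and -0.79 under PEE-PH, -0.73, -0.72 and -0.61 under PEE-TA and -0.69, -0.65 and -0.53 under PEE-PH-TA. Groups overlapped, and the lowest 3 arrays were of PH-TA and PH. For Cd36 the average effect of PEE was 0.29 ± 0.08 (adjusted p = 0.00725) and that of PH -0.20 ± 0.08 (adjusted p = 0.0474). The PH call ended with the slide as a replicate block (adjusted p = 0.0506) and without any 1 of 18 arrays (adjusted p up to 0.0895), and it was kept without control 1, PEE 1, PH 1, TA 2, PH-TA 2 or PEE-PH-TA 2. For the average effect of PEE 5 of 10 endothelial markers rose and 0 fell, where 27.1% of all genes changed. Their summed level was 6.15 to 6.32 under PEE alone and 5.88 to 6.0 in control. It overlapped with control under PEE-PH (5.9 to 6.13), PEE-TA (5.93 to 6.13) and PEE-PH-TA (5.84 to 6.09). Egfl7 made up most of this sum, with a mean of 5.51 in control beside 5.94 for the sum. Of 10 macrophage markers 2 rose and 5 fell for the average effect of PEE, and 5 fell for that of PH, where 31.2% of all genes changed. The part of both marker lists in the Cd36 values was not tested.

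Slc27a1 is a transport protein that also activates fatty acids. Its levels were 0.96, 1.07 and 1.22 in control, 0.84, 0.91 and 0.93 under PH, 0.99, 1.07 and 1.11 under TA and 0.83, 1.03 and 1.12 under PH-TA. With PEE present, Slc27a1 read 1.23, 1.28 and 1.30 under PEE alone, 1.06, 1.12 and 1.32 under PEE-PH, 1.17, 1.21 and 1.29 under PEE-TA and 0.77, 1.29 and 1.31 under PEE-PH-TA. PEE arrays lay above control, and 1 PEE-PH-TA array was the lowest of all. For Slc27a1 the average effect of PEE was 0.19 ± 0.06 (adjusted p = 0.0185), which ended without replicate number 1 (adjusted p = 0.128) or 2 (adjusted p = 0.198). Fabp5, the epidermal fatty acid binding protein, read 8.18, 8.35 and 8.37 in control, 8.22, 8.24 and 8.29 under PEE, 8.17, 8.24 and 8.31 under TA and 8.01, 8.10 and 8.27 under PEE-TA. With PH present, Fabp5 read 8.15, 8.16 and 8.28 under PH alone, 7.92, 7.99 and 8.03 under PEE-PH, 8.03, 8.11 and 8.12 under PH-TA and 8.09, 8.12 and 8.17 under PEE-PH-TA. All 3 PEE-PH arrays lay below all control arrays. Its average PH effect was -0.13 ± 0.03 (adjusted p = 0.0078), which became -0.01 with quantile normalization (adjusted p = 0.743) and 0.00 in the authors' value table (adjusted p = 0.955). Fabp4, the adipocyte and endothelial form, ran from 3.94 to 4.91 and differed from control under PEE-PH, by -0.51 (adjusted p = 0.00619), and under PH-TA, by -0.35 (adjusted p = 0.0494), but not on average for any compound.

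In the carnitine shuttle, Cpt2 and Cpt1a rose on average under PH and under TA, Slc25a20 rose under TA, and Cpt1b did not pass. Cpt1a, the rate-limiting step that makes carnitine esters at the outer mitochondrial membrane (probe at chr19:3385374-3385433, mm9), read 1.76, 1.79 and 1.91 in control, 1.64, 1.70 and 1.72 under PEE, 1.91, 1.95 and 2.12 under TA and 1.91, 1.97 and 2.08 under PEE-TA. With PH present, Cpt1a read 1.84, 1.90 and 1.93 under PH alone, 2.05, 2.06 and 2.08 under PEE-PH, 1.99, 2.07 and 2.13 under PH-TA and 1.85, 1.87 and 1.94 under PEE-PH-TA. The 3 PEE arrays were the lowest of all, and the PEE-PH and PH-TA arrays lay above all control arrays. Average effects were 0.10 ± 0.03 (adjusted p = 0.0221) for PH and 0.12 ± 0.03 (adjusted p = 0.0352) for TA. Both calls ended in the authors' value table, and the PH call without replicate number 1 (adjusted p = 0.297) or 3 (adjusted p = 0.142). PH added to PEE gave 0.38 (adjusted p = 0.000304) and TA added to PEE 0.30 (adjusted p = 0.00288). The TA call ended without any 1 of control 1, control 3, PEE 1, PEE 2, PH 1, PH 3, TA 2, PEE-PH 2, PEE-PH 3, PEE-TA 2, PH-TA 1, PH-TA 2 or PEE-PH-TA 1 (adjusted p up to 0.0714).

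Cpt2 turns the esters back into coenzyme A esters inside the mitochondrion (probe at chr4:107576571-107576610, mm9). Cpt2 levels were 1.74, 1.78 and 1.81 in control, 1.69, 1.75 and 1.77 under PEE, 1.85, 1.90 and 2.00 under TA and 1.98, 2.05 and 2.15 under PEE-TA. With PH present, Cpt2 read 1.94, 1.98 and 2.03 under PH alone, 2.10, 2.13 and 2.15 under PEE-PH, 1.99, 2.12 and 2.23 under PH-TA and 1.93, 1.96 and 2.11 under PEE-PH-TA. Every array with PH, TA or a mixture lay above all 3 control and all 3 PEE arrays. For Cpt2 the average effect of PH was 0.18 ± 0.03 (adjusted p = 0.000666), with 0.28, 0.10 and 0.18 on the 3 slides, and that of TA 0.12 ± 0.03 (adjusted p = 0.0388). Against control Cpt2 rose under PEE-PH by 0.35 (adjusted p = 0.000547), under PEE-TA by 0.29 (adjusted p = 0.00477), under PH-TA by 0.34 (adjusted p = 0.00156) and under PEE-PH-TA by 0.23 (adjusted p = 0.026). The last call ended without any 1 of control 1, control 2 or PEE-PH-TA 3 (adjusted p up to 0.111), and the TA call ended without any 1 of 18 arrays (adjusted p up to 0.0781), being kept without PEE 2, PH 1, TA 1, PEE-TA 1, PH-TA 3 or PEE-PH-TA 2. Another Cpt2 probe, at a mean log2 signal of 4.04, gave 0.06 for PH (adjusted p = 0.51) and 0.15 for TA (adjusted p = 0.185). Under PEE-PH-TA that probe gave 0.05 (adjusted p = 0.871). As the mean of all probes the TA and PEE-PH-TA calls of Cpt2 ended too.

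Slc25a20 is the carrier that moves the esters across the inner membrane. Its levels were -1.77, -1.75 and -1.69 in control, -1.79, -1.62 and -1.56 under PEE, -1.73, -1.59 and -1.44 under PH and -1.55, -1.47 and -1.47 under PEE-PH. With TA present, Slc25a20 read -1.59, -1.53 and -1.10 under TA alone, -1.52, -1.40 and -1.39 under PEE-TA, -1.50, -1.48 and -1.36 under PH-TA and -1.61, -1.40 and -1.40 under PEE-PH-TA. All arrays with TA lay above all control arrays, and 1 TA array was the highest of all. For Slc25a20 the average effect of TA was 0.18 ± 0.05 (adjusted p = 0.0462), and it ended with the slide as a replicate block (adjusted p = 0.0544) and without any 1 of 19 arrays (adjusted p up to 0.0863), being kept without PEE 2, PH 1, TA 1, TA 2 or PEE-PH-TA 3. Cpt1b, the muscle form of the entry enzyme, was dim and ran from -4.25 to -3.19, with average effects of 0.20, 0.01 and 0.15 for PEE, PH and TA. The summed level of the 14 muscle markers was 5.85 to 6.12 in control, 4.78 to 6.79 under PH and 5.7 to 6.47 under PEE. It lay above all control arrays on every array of the other groups, at 6.44 to 7 under TA, 6.38 to 6.54 under PH-TA, 6.5 to 7.36 under PEE-TA, 6.72 to 7.1 under PEE-PH and 6.43 to 6.98 under PEE-PH-TA. Cpt1a, Cpt2 and Slc25a20 had higher means than control in these same groups. They did so under PH alone too, at 1.89, 1.98 and -1.585 against 1.82, 1.78 and -1.73 in control, though the muscle sum there spanned the control range. Under PEE alone Slc25a20 was higher (-1.66) and Cpt1a (1.69) and Cpt2 (1.735) were lower. The part of muscle in their values was not tested.

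The interaction of PH and TA, the difference that TA made to the effect of PH, was below 0 for Cpt1a, Cpt2 and the thioesterase Acot1, and 3 of 37 members passed where 13.9% of all genes did. It was -0.24 ± 0.06 (adjusted p = 0.0188) for Cpt1a, -0.23 ± 0.07 (adjusted p = 0.0253) for Cpt2 and -0.32 ± 0.09 (adjusted p = 0.0271) for Acot1. By background the values differed mainly where PEE was present, a difference that was not tested. Without PEE, PH gave 0.07 alone and 0.07 added to TA for Cpt1a, 0.21 and 0.19 for Cpt2, and 0.12 and 0.05 for Acot1, none of them called. Added to PEE, PH raised Acot1 by 0.48 (adjusted p = 0.000792) and Cpt2 by 0.40 (adjusted p = 0.000273). Added to PEE-TA, it gave -0.10 for Cpt1a, -0.06 for Cpt2 and -0.10 for Acot1, and 0 of 37 members passed in that comparison by limma, where 0.281% of all genes did and 4 members were under an unadjusted p of 0.05. The Cpt2 interaction ended without PEE-TA 2 (adjusted p = 0.0531) and as the mean of all probes. The Acot1 interaction ended without any 1 of control 3, PEE 3, PH 2, PEE-PH 1, PEE-PH 2, PEE-TA 2 or PH-TA 2 (adjusted p up to 0.0558). The interactions of PEE with PH and of PEE with TA were called for 0 members and 0% of all genes by limma, with 0 and 6 members under an unadjusted p of 0.05.

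**Figure D4:**
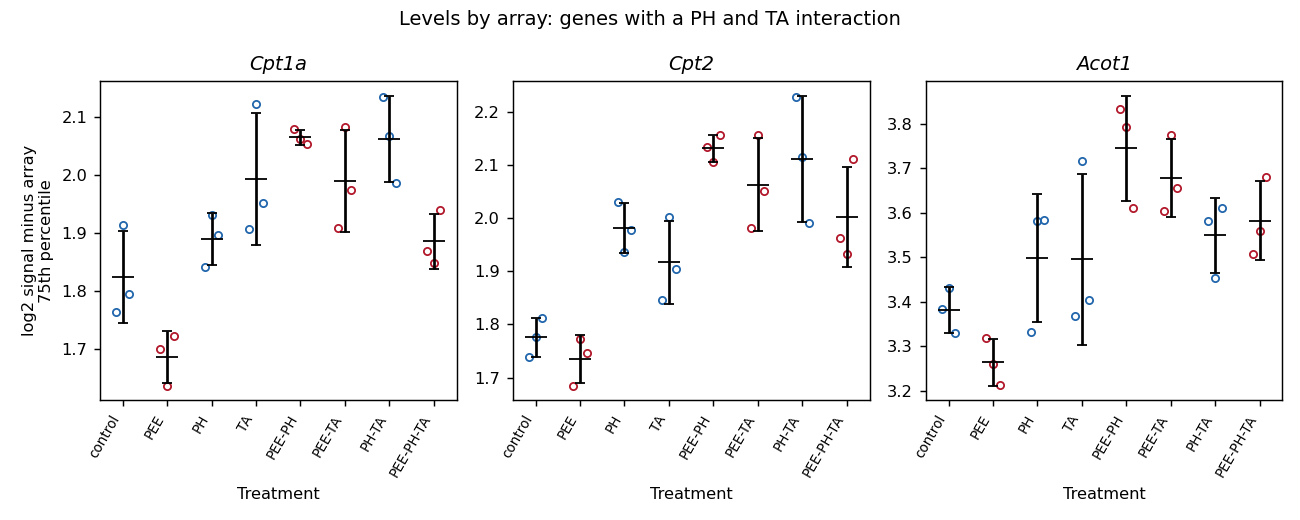
Level of Cpt1a, Cpt2 and Acot1 on each array (circles, 3 per group, red for groups with PEE and blue for the others), with mean and SD in black. The y axis is log2 signal minus the 75th percentile of the array and differs between panels. In all 3 panels PEE-PH lies above control and the mean of PEE-PH-TA below that of PEE-PH, with Cpt1a at 2.05 to 2.08 and at 1.85 to 1.94.

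In mitochondrial oxidation 4 of 9 enzymes rose on average under PH, 1 fell under PEE and 1 rose under TA. Acaa2, the thiolase that closes each cycle for shorter chains, read 3.94, 4.0 and 4.10 in control, 3.98, 4.0 and 4.17 under PH, 4.05, 4.16 and 4.27 under TA and 4.07, 4.12 and 4.17 under PH-TA. With PEE present, Acaa2 read 3.58, 3.63 and 3.66 under PEE alone, 3.80, 3.92 and 4.0 under PEE-PH, 3.92, 3.95 and 4.06 under PEE-TA and 3.90, 3.92 and 3.93 under PEE-PH-TA. The 3 PEE arrays were the 3 lowest of all 24, PEE-PH-TA lay below all control arrays by a narrow margin, and PEE-PH and PEE-TA overlapped with control. For Acaa2 the average effect of PEE was -0.23 ± 0.04 (adjusted p = 6.43e-05), below 0 in all 4 backgrounds (-0.39 to -0.14), and the call held in every setting tried. TA raised it by 0.14 ± 0.04 (adjusted p = 0.0194) on average, and TA added to PEE gave 0.35 (adjusted p = 0.00178).

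Acadvl is the dehydrogenase that starts the cycle for very long chains. Acadvl levels were 3.73, 3.78 and 3.78 in control, 3.67, 3.71 and 3.72 under PEE, 3.79, 3.83 and 3.96 under TA and 3.84, 3.93 and 3.94 under PEE-TA. With PH present, Acadvl read 3.92, 3.92 and 4.01 under PH alone, 3.90, 3.94 and 3.94 under PEE-PH, 3.92, 3.94 and 3.95 under PH-TA and 3.91, 3.92 and 4.04 under PEE-PH-TA. All 12 arrays with PH lay above all control and all PEE arrays and overlapped with the TA and PEE-TA arrays. For Acadvl the average effect of PH was 0.14 ± 0.03 (adjusted p = 0.00112), at 0.06 to 0.23 over the 4 backgrounds. It rose under PH alone by 0.19 (adjusted p = 0.0454), a call that ended with only the arrays compared (adjusted p = 0.185), without the filter on dim probes (adjusted p = 0.0839) and with the slide as a replicate block (adjusted p = 0.0536). Under PEE-PH-TA it rose by 0.19 (adjusted p = 0.0165), where the call ended with only the arrays compared (adjusted p = 0.161) and without any 1 of control 3 or PEE-PH-TA 3 (adjusted p up to 0.0696).

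Decr1 handles unsaturated chains as a dienoyl reductase. Decr1 levels were 2.54, 2.59 and 2.72 in control, 2.56, 2.58 and 2.69 under PEE, 2.56, 2.65 and 2.68 under TA and 2.68, 2.69 and 2.73 under PEE-TA. With PH present, Decr1 read 2.75, 2.80 and 2.86 under PH alone, 2.74, 2.76 and 2.78 under PEE-PH, 2.69, 2.71 and 2.77 under PH-TA and 2.77, 2.86 and 2.98 under PEE-PH-TA. The arrays of PH, PEE-PH and PEE-PH-TA were above all control arrays, by narrow margins. Its average PH effect was 0.15 ± 0.03 (adjusted p = 0.00166), and PEE-PH-TA differed from control by 0.26 (adjusted p = 0.00785). The latter call ended in the authors' value table (adjusted p = 0.0707), with only the arrays compared (adjusted p = 0.14) and without replicate number 1 (adjusted p = 0.165) or 2 (adjusted p = 0.0857). Acadm, the medium-chain dehydrogenase, read 1.95, 2.10 and 2.14 in control, 1.84, 1.89 and 1.96 under PEE, 2.05, 2.06 and 2.29 under TA and 2.02, 2.07 and 2.09 under PEE-TA. With PH present, Acadm read 2.14, 2.16 and 2.20 under PH alone, 2.11, 2.16 and 2.18 under PEE-PH, 2.12, 2.21 and 2.24 under PH-TA and 2.12, 2.21 and 2.22 under PEE-PH-TA. The PEE arrays were low and the others overlapped. For Acadm the average effect of PH was 0.13 ± 0.03 (adjusted p = 0.00602).

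Hadhb is the thiolase subunit of the trifunctional protein. Hadhb levels were 3.00, 3.02 and 3.16 in control, 2.83, 2.89 and 2.94 under PEE, 3.00, 3.02 and 3.1 under TA and 3.06, 3.08 and 3.1 under PEE-TA. With PH present, Hadhb read 3.05, 3.05 and 3.12 under PH alone, 3.05, 3.08 and 3.20 under PEE-PH, 3.1, 3.12 and 3.14 under PH-TA and 3.03, 3.08 and 3.15 under PEE-PH-TA. Groups overlapped, the PEE arrays being the lowest. Its average PH effect was the smallest called, at 0.08 ± 0.03 (adjusted p = 0.0356). It ended without any 1 of control 1, control 3, PEE 1, PH 2, TA 1, TA 3, PEE-PH 2, PEE-TA 3, PH-TA 3 or PEE-PH-TA 3 (adjusted p up to 0.0714), and the mean of all its probes stood at -0.14. Eci1, an isomerase for unsaturated chains, read 2.10, 2.12 and 2.13 in control, 2.19, 2.26 and 2.34 under PH, 2.14, 2.18 and 2.43 under TA and 2.14, 2.14 and 2.29 under PH-TA. With PEE present, Eci1 read 2.06, 2.17 and 2.22 under PEE alone, 2.23, 2.25 and 2.35 under PEE-PH, 2.17, 2.27 and 2.30 under PEE-TA and 2.27, 2.52 and 2.54 under PEE-PH-TA. All PEE-PH-TA arrays lay above all control arrays. The difference was 0.32 ± 0.08 (adjusted p = 0.0122), and the call ended without any 1 of PEE-PH-TA 1 or PEE-PH-TA 2 (adjusted p up to 0.0608).

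Acadl, Hadha and Ech1 were not called for any average effect. Acadl, the long-chain dehydrogenase, varied little, from 1.70 to 1.96. Hadha, the partner subunit of Hadhb, ran from 0.33 to 1.04 and was called under PH-TA, at 0.32 (adjusted p = 0.0328). Ech1, an isomerase, ran from 3.06 to 3.40 and was called where PH (0.20 (adjusted p = 0.0482)) or TA (0.25 (adjusted p = 0.0224)) was added to PEE. PH added to PEE changed the most members of any such step, 13 rising and 3 falling, against 33.5% of all genes. TA added to PEE raised 8 and lowered 0, against 23.2%.

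The electron transfer flavoprotein passes electrons from the dehydrogenases to the respiratory chain. Its beta subunit Etfb read 4.72, 4.74 and 4.76 in control, 4.62, 4.68 and 4.70 under PH, 4.67, 4.72 and 4.78 under TA and 4.54, 4.55 and 4.64 under PH-TA. With PEE present, Etfb read 4.53, 4.59 and 4.60 under PEE alone, 4.42, 4.43 and 4.51 under PEE-PH, 4.49, 4.50 and 4.61 under PEE-TA and 4.48, 4.72 and 4.74 under PEE-PH-TA. PEE, PEE-PH and PEE-TA arrays were below all control arrays, and so were the PH and PH-TA arrays, which had no PEE. The lowest PEE-PH-TA array was below control too, while the other 2 reached the control level. For Etfb the average effect of PEE was -0.13 ± 0.03 (adjusted p = 0.00574), and another Etfb probe gave -0.13 (adjusted p = 0.0545). Etfa ran from 3.34 to 3.77 and Etfdh, the oxidoreductase that takes the electrons over, from 1.50 to 1.83. Their average PEE effects were -0.06 and -0.06, and neither passed for any compound.

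Peroxisomal members moved little. Ehhadh, the bifunctional enzyme of peroxisomal oxidation and a classical PPAR alpha target, was dim, at 7.12 to 19.3 signal units. Its levels were -4.00, -3.99 and -3.73 in control, -4.35, -4.17 and -3.92 under PEE, -4.27, -4.17 and -4.06 under TA and -4.09, -3.66 and -3.42 under PEE-TA. With PH present, Ehhadh read -4.09, -3.85 and -3.58 under PH alone, -3.61, -3.58 and -3.53 under PEE-PH, -3.96, -3.67 and -3.65 under PH-TA and -4.20, -3.66 and -3.48 under PEE-PH-TA. PEE-PH arrays were above all control arrays and the other groups overlapped. The average PH effect was 0.25 ± 0.09 (adjusted p = 0.0459), which ended with the slide as a replicate block (adjusted p = 0.0523), without any 1 of 17 arrays (adjusted p up to 0.0834), was kept without control 3, PEE 3, PH 1, TA 2, PEE-TA 1, PH-TA 3 or PEE-PH-TA 3, and stood at -0.09 with normexp background. Acaa1a, the peroxisomal thiolase, ran from 4.27 to 4.51, Eci2 from 2.85 to 3.19 and Pex11a, which drives peroxisome division, from 1.18 to 1.64. None of the 3 passed for an average effect, the largest being PH on Pex11a at 0.12 ± 0.04 (adjusted p = 0.0557). Acaa1a and Acaa1b are near copies and may share signal.

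The thioesterases Acot1 and Acot2, which split coenzyme A esters in cytosol and mitochondria, are near copies too, so that signal of one may reach the probe of the other. Acot1 levels were 3.33, 3.38 and 3.43 in control, 3.21, 3.26 and 3.32 under PEE, 3.37, 3.40 and 3.72 under TA and 3.60, 3.65 and 3.77 under PEE-TA (probe at chr12:85358452-85358511, mm9). With PH present, Acot1 read 3.33, 3.58 and 3.58 under PH alone, 3.61, 3.79 and 3.83 under PEE-PH, 3.45, 3.58 and 3.61 under PH-TA and 3.51, 3.56 and 3.68 under PEE-PH-TA. The arrays of all 4 mixtures lay above all control arrays, and the PEE arrays lay below them. The average PH effect was 0.14 ± 0.05 (adjusted p = 0.0295), and it ended without any 1 of control 3, PEE 3, PH 2, PH 3, TA 1, TA 3, PEE-PH 1, PEE-PH 2, PEE-TA 1 or PEE-PH-TA 3 (adjusted p up to 0.0569). Acot2 ran from -1.22 to -0.55 and was called under PEE-TA alone, at 0.39 (adjusted p = 0.0129).

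Lpin1 changed the most of all members. It encodes lipin, a phosphatidate phosphatase of triglyceride synthesis that also acts as a coactivator with PPAR alpha (probe at chr12:16543023-16543082, mm9). Lpin1 levels were -2.31, -2.24 and -2.23 in control, -2.31, -2.28 and -1.92 under PH, -2.17, -2.09 and -2.07 under TA and -2.01, -1.63 and -1.38 under PH-TA. With PEE present, Lpin1 read -1.52, -1.36 and -1.28 under PEE alone, -1.13, -1.12 and -0.91 under PEE-PH, -1.41, -1.16 and -1.0 under PEE-TA and -1.38, -1.36 and -1.22 under PEE-PH-TA. All 12 arrays with PEE lay above all control, PH and TA arrays, and 1 PH-TA array reached into their range. For Lpin1 the average effect of PEE was 0.82 ± 0.07 (adjusted p = 6.4e-08), a 1.76-fold rise, with 0.71, 0.83 and 0.91 on the 3 slides and 0.35 to 1.12 over the 4 backgrounds. Against control the rise was 0.87 ± 0.14 (adjusted p = 0.000457) under PEE, 1.21 ± 0.14 (adjusted p = 4.91e-06) under PEE-PH, 1.07 ± 0.14 (adjusted p = 4.06e-05) under PEE-TA and 0.94 ± 0.14 (adjusted p = 0.000145) under PEE-PH-TA. Under PH-TA, without PEE, it rose by 0.59 (adjusted p = 0.00413), and this was 0.07 as the mean of all probes (adjusted p = 0.523). The PEE calls held in every setting tried for the average and for PEE-PH-TA. Another probe gave 0.73 for the average (adjusted p = 1.27e-06), and the remaining probes, both dim, gave 0.25 (adjusted p = 0.0151) and 0.15 (adjusted p = 0.432). The average PH effect was 0.18 ± 0.07 (adjusted p = 0.0487), which ended without any 1 of 18 arrays (adjusted p up to 0.0944), was kept without PEE 2, PH 1, PH 3, PEE-PH 3, PEE-TA 2 or PH-TA 3, and stood at -0.07 as the mean of all probes.

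**Figure D5:**
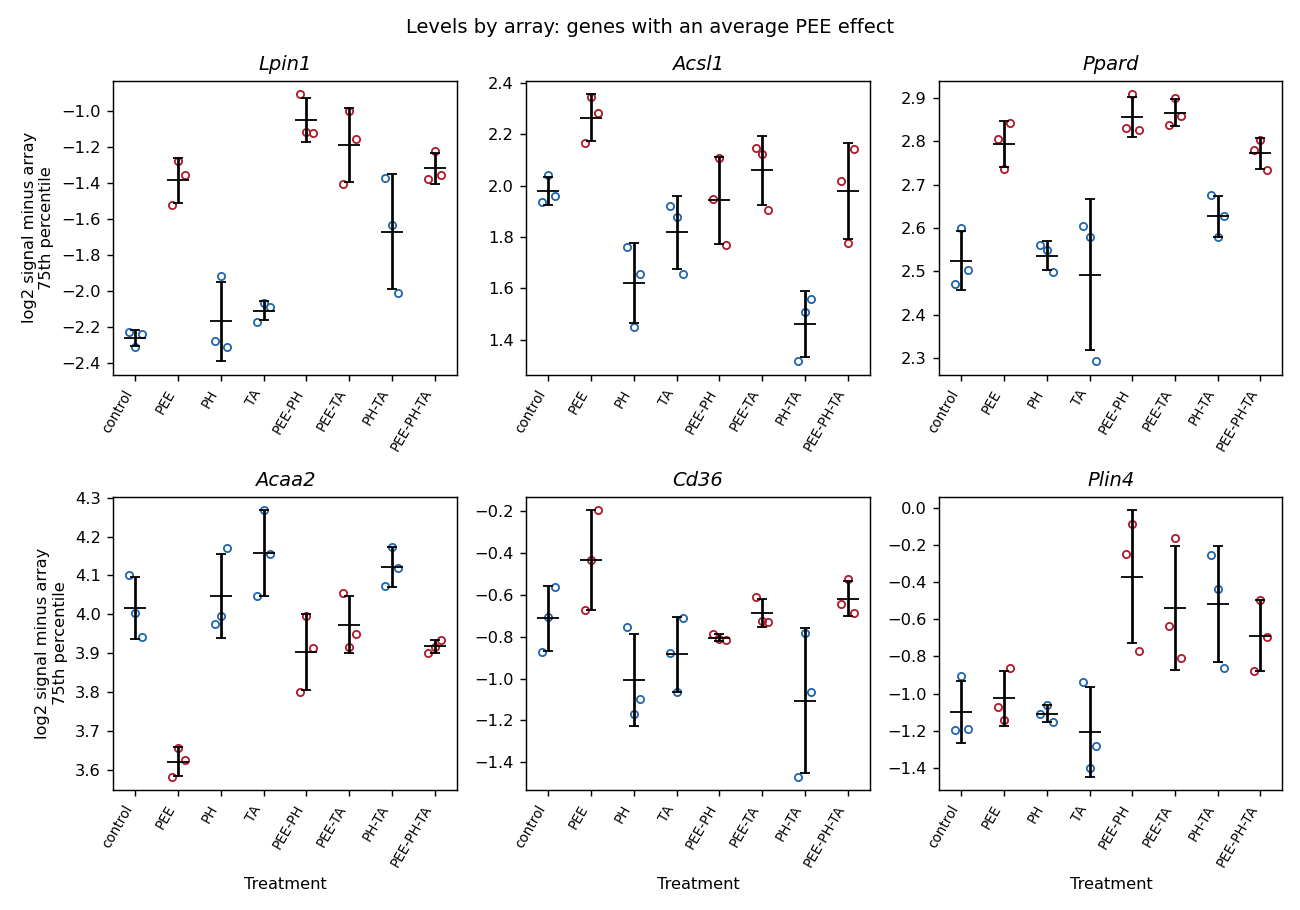
Level of Lpin1, Acsl1, Ppard, Acaa2, Cd36 and Plin4 on each array (circles, 3 per group, red for groups with PEE and blue for the others), with mean and SD in black. The y axis is log2 signal minus the 75th percentile of the array and differs between panels. For Lpin1 the red groups lie between -1.52 and -0.91 and the control arrays between -2.31 and -2.23, and for Ppard every red circle is above every blue one.

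The droplet coat proteins parted ways. Plin4, of adipocyte and muscle droplets, read -1.20, -1.19 and -0.91 in control, -1.15, -1.11 and -1.06 under PH, -1.40, -1.28 and -0.94 under TA and -0.86, -0.44 and -0.26 under PH-TA. With PEE present, Plin4 read -1.14, -1.07 and -0.86 under PEE alone, -0.77, -0.25 and -0.09 under PEE-PH, -0.81, -0.64 and -0.17 under PEE-TA and -0.88, -0.70 and -0.49 under PEE-PH-TA. The 3 single compounds overlapped with control, and the arrays of all 4 mixtures lay above all control arrays. The average effects were 0.33 ± 0.10 (adjusted p = 0.0157) for PEE and 0.29 ± 0.10 (adjusted p = 0.0258) for PH. The PH call ended without any 1 of PEE-PH 2 or PH-TA 1 (adjusted p up to 0.052). Plin4 rose against control under PEE-PH by 0.73 (adjusted p = 0.00665), under PEE-TA by 0.56 (adjusted p = 0.0389) and under PH-TA by 0.58 (adjusted p = 0.0298). With only the arrays compared the calls under PEE-TA (adjusted p = 0.0911) and PH-TA (adjusted p = 0.0622) ended. Of 14 muscle markers 8 rose under PEE-PH (median 1.01) and 7 under PEE-TA (median 1.01), above the shares of all genes called there (35.9% and 25.6%). Under PH-TA 5 rose (median 0.56), near the share of 29.8%. Under PEE-PH-TA 1 rose (median 0.57), below the share of 16.5%. The part of muscle in the values of Plin4 and of Pdk4 was not tested.

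Plin2, the coat protein found in most cells and a PPAR target, read 4.66, 4.70 and 4.76 in control, 4.68, 4.70 and 4.83 under PEE, 4.49, 4.62 and 4.67 under TA and 4.46, 4.62 and 4.78 under PEE-TA. With PH present, Plin2 read 4.43, 4.52 and 4.64 under PH alone, 4.43, 4.46 and 4.63 under PEE-PH, 4.15, 4.33 and 4.44 under PH-TA and 4.52, 4.62 and 4.75 under PEE-PH-TA. PH, PEE-PH and PH-TA arrays were below all control arrays, and PEE-PH-TA overlapped. The average PH effect was -0.17 ± 0.05 (adjusted p = 0.0107), and the largest difference from control was under PH-TA, at -0.40 (adjusted p = 0.0044). Another Plin2 probe gave -0.28 for PH and, under PEE-PH-TA, -0.34 (adjusted p = 0.0262).

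Among targets of fuel choice Pdk4 was called and Angptl4 and Ucp3 were not. Pdk4 is the kinase that shuts off pyruvate dehydrogenase when fat is burned. Pdk4 levels were -1.83, -1.72 and -1.61 in control, -1.85, -1.50 and -1.32 under PH, -1.65, -1.57 and -1.54 under TA and -1.38, -1.09 and -0.95 under PH-TA. With PEE present, Pdk4 read -1.77, -1.59 and -1.21 under PEE alone, -0.91, -0.89 and -0.85 under PEE-PH, -1.35, -1.11 and -1.04 under PEE-TA and -1.36, -1.32 and -1.30 under PEE-PH-TA. All arrays of the 4 mixtures lay above all control arrays, and the single compounds overlapped with control. The average effect was 0.28 ± 0.07 (adjusted p = 0.00586) for PEE, over backgrounds from -0.18 to 0.67, and 0.27 ± 0.07 (adjusted p = 0.00691) for PH, from -0.16 to 0.64. Against control Pdk4 rose by 0.83 ± 0.14 (adjusted p = 0.000186) under PEE-PH, 0.55 (adjusted p = 0.00772) under PEE-TA and 0.58 (adjusted p = 0.00517) under PH-TA. Angptl4, a secreted inhibitor of lipoprotein lipase, ran from 3.72 to 4.65 with a PEE effect of -0.19 ± 0.08 (adjusted p = 0.094). Ucp3, the uncoupling protein of muscle mitochondria, ran from 2.48 to 3.27 with a TA effect of 0.15 ± 0.08 (adjusted p = 0.248).

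The signal of the arrays moved with these results. With each array's 75th percentile entered as a covariate (on the log2 scale), an alternative chosen after the data were seen, 8 of the 9 PEE calls were kept, Cd36 being lost, and 0 of the 17 PH and 0 of the 4 TA calls. The sizes moved in different ways. For PH 4 of 17 were as large or larger with the covariate, Pparg at -0.39 (adjusted p = 0.143), Acsl1 at -0.32 (adjusted p = 0.119), Decr1 at 0.18 (adjusted p = 0.114) and Fabp5 at -0.20 (adjusted p = 0.103). Another 7 shrank to less than 0.5 of their size, among them Cpt1a at 0.03 and Acot1 at 0.03, and Cd36 turned to 0.02. For TA Slc25a20 stood at 0.23 (adjusted p = 0.236). Over all genes the calls for PH went from 6884 to 239. The 3 interactions of PH and TA were lost as well. Whether array signal has a part in the results of PH and TA was not tested.

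Further genes of the same pathways were read from 6 lists of 148 genes, of which 133 were tested, again by average effects. For PEE 30 rose and 15 fell (33.8%), for PH 28 rose and 13 fell (30.8%), and for TA 9 rose and 2 fell (8.27%), against the shares of all genes given above. The median over these genes was 0.02 for TA and 0.03 for both PEE and PH.

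Of 21 partners, coactivators and corepressors of PPARs, 7 rose and 1 fell under PEE. Lpin2, a relative of Lpin1, rose by 0.29 ± 0.05 and Prkaa2, a catalytic subunit of the energy sensor AMPK, by 0.23 ± 0.06, and Pprc1, a relative of Ppargc1a, was lower, at -0.15 ± 0.04. Under PH 6 rose and 1 fell, Ep300 by 0.17 ± 0.06 and Ncoa1 by 0.16 ± 0.05, and Crebbp, an acetyltransferase like Ep300, stood at -0.12 ± 0.04. Under TA 2 rose, Lpin3 by 0.19 ± 0.05 and the receptor partner Rxrb by 0.10 ± 0.03, and Crebbp was lower, at -0.15 ± 0.04.

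Of 22 other genes of mitochondrial oxidation, 5 rose and 2 fell under PEE. Cpt1c rose by 0.35 ± 0.05 and the thioesterase Acot13 by 0.33 ± 0.03, while the thiolase Acat1 stood at -0.24 ± 0.03 and Acot9 at -0.09 ± 0.02, both lower. Under PH 5 rose and 0 fell, among them Cpt1c at 0.22 ± 0.05. Under TA 3 rose and 0 fell, among them Acad10 by 0.40 ± 0.10.

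Of 29 tested genes of peroxisomal and microsomal oxidation, 5 rose and 3 fell under PEE, 6 rose and 3 fell under PH and 2 rose under TA. The thioesterase Acot4 rose under PEE by 0.66 ± 0.13 and fell under PH, at -0.53 ± 0.13. Pex13, of the peroxisomal import machinery, rose under PEE by 0.17 ± 0.04, and Acot8 and Pecr were lower, at -0.17 ± 0.05 and -0.11 ± 0.03. Under PH Pex11g rose by 0.30 ± 0.03 and Phyh, which starts the breakdown of phytanic acid, by 0.27 ± 0.04, and Decr2 fell, at -0.27 ± 0.09. Under TA Pex11g rose by 0.13 ± 0.03 and Amacr by 0.12 ± 0.03.

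Of 21 tested genes of uptake, binding and activation, 5 rose and 3 fell under PEE, 2 rose and 4 fell under PH and 0 passed under TA. Acsl3, a coenzyme A ligase like Acsl1, rose under PEE by 0.54 ± 0.07 and Gpihbp1, the capillary anchor of lipoprotein lipase, by 0.31 ± 0.10. Acsm3 was lower, at -0.40 ± 0.12. Slc27a6 was lower under PEE, at -0.32 ± 0.09, and higher under PH, at 0.40 ± 0.09. Slc27a3 rose under PH by 0.23 ± 0.08, and the binding proteins Fabp6 and Fabp7 fell, at -0.41 ± 0.09 and -0.42 ± 0.11.

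Of 20 tested genes of droplets and lipolysis, 5 rose and 1 fell under PEE. Lipa, the acid lipase of lysosomes, rose by 0.60 ± 0.05 and Abhd5, the coactivator of adipose triglyceride lipase, by 0.33 ± 0.04. Pnpla3 was lower with each compound, at -0.70 ± 0.07 under PEE, -0.66 ± 0.07 under PH and -0.26 ± 0.07 under TA. Pnpla2, the adipose triglyceride lipase itself, rose under PH by 0.26 ± 0.04 and under TA by 0.17 ± 0.04. G0s2, an inhibitor of that lipase, fell under PH, at -0.69 ± 0.06, and Gpam rose by 0.13 ± 0.04. In all 3 rose and 3 fell under PH, and 1 rose and 1 fell under TA.

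Of 21 tested further PPAR targets, pyruvate dehydrogenase kinases and uncoupling proteins, 3 rose and 5 fell under PEE, 6 rose and 2 fell under PH and 1 rose under TA. Txnip, an inhibitor of glucose uptake, rose under PEE by 0.68 ± 0.08, and Fgf21, a hormone induced by PPAR alpha in liver, by 0.36 ± 0.11. Creb3l3 and Pck2 were lower under PEE, at -0.44 ± 0.10 and -0.31 ± 0.04. Vnn1, a pantetheinase and PPAR alpha target, rose under PH by 0.62 ± 0.20 and the phosphatase gene Pdp1 by 0.27 ± 0.05. Nr1h3 and Pck2 were lower under PH, at -0.21 ± 0.06 and -0.18 ± 0.04. Pdk2, a kinase of the same family as Pdk4, rose under TA by 0.25 ± 0.07.

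Markers of the cell types in the follicle moved with the compounds too. For the average effects, of 16 hair follicle epithelium markers 10 rose and 1 fell under PH, 9 rose under TA and 4 fell under PEE. Of all genes 31.2%, 7.97% and 27.1% changed, so the counts for PH and TA were above these shares. The summed level of these markers was 10.95 to 11.16 in control, 11.04 to 11.24 under PH, 11.06 to 11.28 under TA and 10.72 to 10.92 under PEE. Of 8 tested adipocyte markers 2 rose under PEE, near the share of all genes, and 1 under PH, below it. The 2 were Lipe and Ucp1. Ucp1 was well above background on 8 arrays only, so it passed the filter through the groups where it was bright. The summed level of all 9 markers varied within groups, from 0.65 to 1.84 in control and from 0.31 to 2.26 under PEE-TA. For the average effects 1 of 14 muscle markers rose under PEE and 1 fell under PH, below the shares of all genes. Under TA 3 rose, above the share of all genes (7.97%). The part of cell type composition in the members' values was not tested.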

How the data were processed

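The authors deposited the scanner output of 24 one-colour arrays, and per the file headers the signal intensities were read by Agilent Feature Extraction 12.0.3.1, background-subtracted and detrended. Probe positions in the files are on mouse build NCBI37 (mm9). The value was log2 of the processed intensity minus the 75th percentile of the array. Of 56605 probes (59305 spots), 33340 were tested, a probe having to be well above background on all arrays of some group. Non-uniform (41) and population outlier (2347) spots were set to missing, 25 probes were left out for this, and 0 spots were saturated. A gene with several probes was read from the one with the highest mean. Each group had 1 mean in a limma fit over all arrays with 16 residual degrees of freedom. Within a comparison the Benjamini-Hochberg adjustment ran over 22065 genes, and calls had an adjusted p under 0.05. The replicates were independent experiments per the labels, and the number of arrays limits the precision.

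The members and all gene lists were chosen with earlier results of these data known. By the rule for named genes, every member is accounted for, members called in an average effect or in PEE-PH-TA against control have their value on each array, and of each pathway list up to 2 risers and 2 fallers per average effect are named. One gene that this rule names is not reported here. A marker sum is the log2 of the summed signal of a list relative to the 75th percentile. Same-numbered arrays correlated in their deviations from group means at -0.19 to 0.35 over 84 pairs (median 0.10). The median for arrays of different numbers was -0.05. Pairing by number required every same-number value to be over 0.1, and 44 of the 84 were, so the numbers were not taken as pairs. The fit as reported thus has no term for a shared number. Since each number was 1 slide, the replicate block also stands for the slide.

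Alternatives were quantile normalization, normexp background (offset 50), the authors' value table, testing dim probes too, averaging a gene's probes, a replicate block, limma's trended robust prior, fits with only the arrays compared, and leaving out each array or replicate number. Array signal as a covariate was chosen after the data were seen. The authors' deposited value table holds log2 values with column medians of 3.97 to 4.05, and each of its 24 columns correlated best with its own scan over 31399 bright spots. Its background step and normalization are not given in the sources used here. The fit was tested on simulated data. Fits ran in limma 3.58.1 under R 4.3.3, and figures were drawn by matplotlib 3.10.9 in Python 3.11.15.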

Additional observations from a re-analysis of the deposited data

Results flagged for a closer look

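The effect of PH differed with the presence of TA for 3 of 37 members (8.11%) by the interaction term in limma, below the 13.9% of all genes. The interaction was -0.24 for Cpt1a (adjusted p = 0.0188), -0.23 for Cpt2 (adjusted p = 0.0253) and -0.32 for Acot1 (adjusted p = 0.0271). In backgrounds with PEE the effect of PH was 0.38 without TA and -0.10 with it for Cpt1a, 0.40 and -0.06 for Cpt2 and 0.48 and -0.10 for Acot1. Without PEE these were 0.07 and 0.07 for Cpt1a, 0.21 and 0.19 for Cpt2 and 0.12 and 0.05 for Acot1. With array signal as a covariate 0 of these passed, and the part of array signal was not tested. With 3 arrays per group, no test for an outlying array was run.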

How the results depend on the processing

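The count of members changed under PEE alone, 3, was 9 with normexp background. For PH alone, 2, it was 0 without the filter on dim probes, 0 with only the arrays compared, 0 with array signal as a covariate and 1 with the replicate block. With only the arrays compared it was 5 under PEE-TA, 7 under PH-TA and 2 under PEE-PH-TA. The covariate of array signal left 5 under PEE-PH, 5 under PEE-TA, 0 under PH-TA, and 0 for the average effects of PH and TA and the interaction of PH and TA. That interaction had 5 with quantile normalization and 5 with normexp background, and the average effect of TA had 10 with normexp background. The average PH effect turned to -0.14 for Hadhb and -0.073 for Lpin1 as the mean of all probes, to -0.09 for Ehhadh with normexp background and to 0.02 for Cd36 with array signal as a covariate. For Hadhb the probes averaged with the reported one gave 0.01, at a mean log2 signal of 7.54, and -0.52, at 3.32. The cause of these turns was not tested. All other counts in the comparisons with control, average effects and interactions stayed within 1.5 times under these alternatives.

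Leaving out an array or a replicate number gave 1 to 5 members under PEE, 0 to 2 under PH, 7 to 14 under PEE-PH, 1 to 12 under PEE-TA, 1 to 14 under PH-TA and 1 to 7 under PEE-PH-TA. It gave 4 to 11 for the average of PEE, 3 to 18 for PH and 0 to 5 for TA, and 0 to 5 for the interaction of PH and TA. Leaving out 1 of the 3 replicate numbers ended 5 of 9 PEE calls, 14 of 17 PH calls, 4 of 4 TA calls and 5 of 6 PEE-PH-TA calls. Each replicate number was also 1 slide, so the replicate block is the slide block, and 19 of 24 arrays correlated best with their own number. With it 9 members passed for PEE, 15 for PH and 3 for TA, the calls lost being Ehhadh and Cd36 for PH (adjusted p = 0.0523 and 0.0506) and Slc25a20 for TA (adjusted p = 0.0544). Normexp background moved the median of all genes to -0.11 under PEE-PH and -0.13 under PH-TA. Without the filter it was 0.11 under PEE, -0.19 under PEE-PH, -0.15 under PEE-TA, -0.21 under PH-TA, -0.11 for the average of PH and 0.14 for the interaction of PH and TA. Signal near background limits Ppara, Cpt1b and Ehhadh.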
